A study of Mus musculus with 2 samples.

Results

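Patrolling, or non-classical, monocytes of the mouse liver were described here from 1 library of a control mouse and 1 library of a mouse with liver fibrosis. Both mice were C57BL/6 males of 8 weeks of age. The control mouse received olive oil and the fibrotic mouse received carbon tetrachloride (CCl4), a hepatotoxin, by intraperitoneal injection 2 times a week for 6 weeks. Non-parenchymal cells were freed from each liver by collagenase, hepatocytes were removed by low-speed centrifugation, and RNA of single cells was read in droplets from the 3′ end. The 2 libraries are named quiescent and fibrosis as in the labels. Each condition was 1 mouse and 1 library, so mouse, library and condition cannot be told apart, and no test between conditions was made.

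Patrolling monocytes are the Ly6C-low monocytes of the mouse. They crawl along the inner face of small vessels with the integrin LFA-1, take up particles and debris from the endothelium, and carry the fractalkine receptor Cx3cr1. They arise from classical Ly6C-high monocytes, and the nuclear receptor Nr4a1 is required for their formation and survival. Classical monocytes leave the blood through the chemokine receptor Ccr2 and give rise to macrophages in injured tissue.

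Members were chosen by unique molecular identifiers (UMIs), each the count of 1 captured transcript. A cell was kept with under 10% mitochondrial UMIs and over 200 genes. A member had at least 3 UMIs of Ace, Treml4 and Eno3 together and at least 1 UMI of Csf1r, with upper limits on genes of scar-associated macrophages (Trem2, Gpnmb), lymphocytes and plasmacytoid dendritic cells (Cd79a, Cd3e, Siglech), Kupffer cells (Clec4f, Vsig4, Cd5l) and endothelial cells (Kdr, Ptprb, Flt4). Ace encodes angiotensin-converting enzyme, Treml4 a receptor of the TREM family, Eno3 the muscle form of enolase and Csf1r the receptor of the growth factor CSF-1. The rule found 117 members among 13603 kept cells. In the quiescent library 70 of 7471 kept cells were members, a share of 0.937% (exact binomial 95% interval 0.731 to 1.18). In the fibrosis library 47 of 6132 were members, a share of 0.766% (0.564 to 1.02). The intervals overlapped, and like all intervals given here they cover counting error only.

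Because these genes chose the members, their levels are a description. Among members, Ace stood at 5.57 UMIs per 10000 UMIs in the quiescent and 3.67 in the fibrosis library, Treml4 at 3.27 and 2.04, and Eno3 at 1.36 and 1.63. Ace was detected in 55 of 70 quiescent and 40 of 47 fibrosis members, and all 3 genes were detected in 26 and 19. The limit of 3 UMIs cut through a continuum. Just outside it, 29 quiescent and 18 fibrosis cells had 2 such UMIs and met every other condition. Just inside it, 15 and 11 members had exactly 3. In the quiescent library Itgal stood at 3.52 UMIs per 10000 in the cells just outside, 3.44 in those just inside and 10.6 in the 55 members with 4 or more. In the fibrosis library these levels were 2.41, 2.71 and 13, the last in 36 members. Nr4a1, which the rule did not use, gave 3.14, 2.27 and 9.23 in the quiescent library and 3.43, 3.87 and 13.4 in the fibrosis library. Of the members with exactly 3 such UMIs, 8 of 15 quiescent and 6 of 11 fibrosis cells carried marks of other cell types, described next, and these held 76.2% and 84.8% of the UMIs at the limit. With marked cells left out, Itgal stood at 4.64, 7.67 and 12.5 UMIs per 10000 in the quiescent library, just outside, just inside and above, and at 4.20, 6.82 and 15.5 in the fibrosis library.

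The label was checked against marker genes of other cells. Of the 70 quiescent members 13 carried a distinct mark of another cell type, and of the 47 fibrosis members 8 did. In the quiescent library 9 members had 9 to 32 UMIs of Xcr1 and Clec9a, receptors of type 1 conventional dendritic cells, where no other member had more than 2. All 9 had no UMI of Ace or of Cx3cr1, and they held 30.3% of the members' UMIs. These values go against the label for the 9 cells, which entered mainly through Treml4. A further 3 quiescent members had 87.7 to 154 UMIs per 10000 of the complement genes C1qa, C1qb and C1qc, and 1 had 345 of the neutrophil genes S100a8 and S100a9. In the fibrosis library 4 members had 88.8 to 493 UMIs per 10000 of Col1a1, Col3a1 and Dcn, genes of matrix-producing cells, where the others had at most 15.7. These 4 cells held 37.3% of the UMIs of the fibrosis members. The remaining marked fibrosis members were 2 with dendritic and 2 with C1q marks. The other 57 quiescent and 39 fibrosis members, 96 in all, are called unmarked members. This split was made after the values were seen, and the main counts are given for all members and for the unmarked members. A value with no set named is over all members, and the classical values beside it are over all classical monocytes. The share of unmarked members was 0.763% of kept cells in the quiescent and 0.636% in the fibrosis library.

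**Figure D1:**
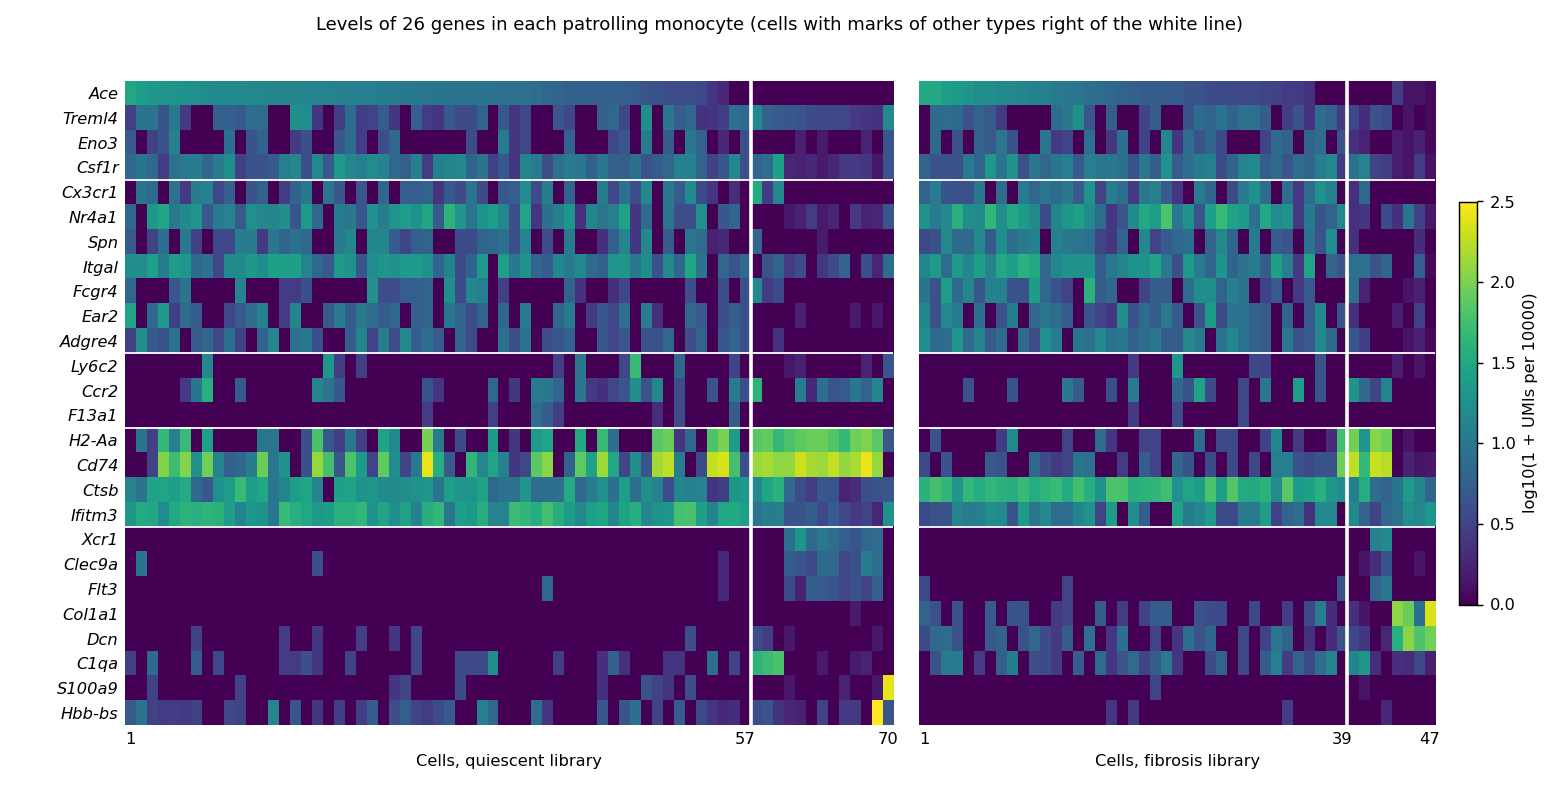
Heat map of 26 genes (rows) in each member (columns) of the quiescent library (70 cells) and of the fibrosis library (47 cells), coloured by log10 of 1 plus UMIs per 10000. Unmarked members stand left of the white line (57 and 39 cells) and members with marks of other cells right of it, where Xcr1 and Clec9a mark 9 quiescent cells and collagen genes mark 4 fibrosis cells.

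Depth set how much could be seen. The quiescent library held 44062632 UMIs in 8130 cells and the fibrosis library 53288463 in 6437 cells. The members had 1228 to 23001 UMIs in the quiescent library, with a median of 5660.5, and 2276 to 62231 in the fibrosis library, with a median of 4498. The deepest fibrosis member alone held 17.2% of the UMIs of its group. The libraries shared 15 cell barcodes, of which 0 belonged to members. A computed doublet score placed 0 quiescent and 1 fibrosis member in the highest 5% of its library. Markers of T and NK cells summed to 0.431 and 0.332 UMIs per 10000 over 9 genes in the members, of which the rule itself limited Cd3e.

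Reference classes were taken from the same libraries. Classical monocytes had at least 2 UMIs of Ly6c2, at least 1 of Ccr2 and at least 1 of Csf1r, fewer than 3 of Ace, Treml4 and Eno3, and the same upper limits. There were 71 in the quiescent and 37 in the fibrosis library, of which 69 and 33 were unmarked. Lymphoid cells, 804 and 268, served to show the RNA found in cells of another lineage that do not use a gene. Marked cells were not left out of this class. Its sums can hold both free droplet RNA and RNA of mixed cells, which were not told apart. Mesenchymal markers, for example, summed to 53.5 UMIs per 10000 in fibrosis lymphoid cells, where the median cell had 13.9 and the highest 457. Patrolling cells made up 49.6% of the 141 quiescent monocytes of both classes (41.1 to 58.2) and 56.0% of the 84 fibrosis monocytes (44.7 to 66.8). Among unmarked cells the shares were 45.2% and 54.2%. The intervals for all members overlapped.

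The genes that set patrolling apart from classical monocytes were examined first, within each library. A gene was compared when it reached 1 UMI per 10000 in either class with at least 10 UMIs in all, and a difference of at least 2-fold was counted. Among all compared genes 5.84% were at least 2-fold higher in the quiescent patrolling members and 3.72% lower. In the fibrosis library 10.8% were higher and 6.44% lower. With marked cells left out of both classes these shares were 5.56% higher and 3.26% lower in the quiescent and 9.19% higher and 6.6% lower in the fibrosis library. Against that background, 14 of 18 compared genes of a list of patrolling monocyte identity were at least 2-fold higher in the unmarked members of the quiescent library, with a median log2 ratio of 1.95. In the fibrosis library 17 of 19 were, with a median of 2.06. The median over all compared genes was 0.01 in the quiescent and 0.06 in the fibrosis library. Over all members, 12 of 18 and 8 of 16 were higher. None of the list was 2-fold lower in either library.

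Nr4a1, the nuclear receptor named above, was detected in 61 of 70 quiescent and 46 of 47 fibrosis members. Its level ran from 0 to 41.5 UMIs per 10000 in single quiescent members with a median of 7.71, and from 0 to 61.5 in fibrosis members with a median of 14.3. The levels of the libraries overlapped widely. With every cell thinned to 1000 UMIs, 48.6% of quiescent and 55.3% of fibrosis members had an Nr4a1 UMI, against 14.3% and 26.9% of lymphoid cells, which can express the gene themselves. In sums the members held 7.27 UMIs per 10000 in the quiescent library and classical monocytes 4.28, a ratio of 1.70 (95% interval 1.43 to 2.02). In the fibrosis library the levels were 8.81 and 3.76, a ratio of 2.35 (1.86 to 2.98). In the unmarked members the ratios were 2.44 and 4.17.

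Cx3cr1, the fractalkine receptor, separated the classes less. Single quiescent members had 0 to 32.9 UMIs per 10000 with a median of 2.71, and fibrosis members 0 to 18.0 with a median of 5.25. No UMI was found in 25 of 70 quiescent and 12 of 47 fibrosis members. The patrolling to classical ratio was 1.21 in the quiescent and 1.18 in the fibrosis library over all members, and 1.48 (1.14 to 1.92) and 2.30 (1.66 to 3.21) over unmarked members, so classical monocytes carried the transcript as well. With every cell thinned to 1000 UMIs, 32.9% of quiescent and 38.3% of fibrosis members had a Cx3cr1 UMI, against 0.622% and 4.85% of lymphoid cells, whose median depths before thinning were 3308.5 and 2670 UMIs.

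Among surface and adhesion genes Spn and Itgal were examined in single cells. Spn encodes CD43, the sialoglycoprotein by which these cells are sorted. It ranged from 0 to 13.3 UMIs per 10000 in quiescent members with a median of 2.22, and from 0 to 16.4 in fibrosis members with a median of 4.26. The summed level was 2.80 times that of classical monocytes in the quiescent library (2 to 3.98) and 6.70 times in the fibrosis library (3.69 to 13.3), and without marked cells 4.25 and 11.8 times. Itgal encodes the alpha chain of LFA-1. Its median was 9.02 UMIs per 10000 in quiescent members, between 0 and 28.6, and 10.0 in fibrosis members, between 0 and 38.1. The Itgal ratio to classical monocytes was 2.61 and 1.69 over all members and 3.62 and 2.95 over unmarked members. In a list of crawling and adhesion genes, 4 of 14 compared were 2-fold higher in the unmarked quiescent members, the integrin chains Itgax, Itgal, Itgb1 and Itgb2, where 5.56% of all genes were. In the unmarked fibrosis members 2 of 15 were, Itgal and Icam1, an adhesion molecule of the immunoglobulin family, where 9.19% of all genes were. Over all members 2 of 14, Itgax and Itgal, and 0 of 14 were.

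Ear2, an eosinophil-associated ribonuclease, and Adgre4, an adhesion G protein-coupled receptor, were low in both reference classes. Ear2 had a median of 2.40 UMIs per 10000 in quiescent members, between 0 and 27.8, and 3.35 in fibrosis members, between 0 and 21.9. Summed levels were 8.71 times those of classical monocytes in the quiescent library (5.17 to 15.7) and 11.3 times in the fibrosis library (5.01 to 31.5), and without marked cells 13.2 and 19.0 times. Lymphoid cells held 0.0598 and 0.194 UMIs per 10000 of Ear2, so the members' 2.81 and 2.68 stood well above that level. Adgre4 was 2.84 and 5.47 times higher than in classical monocytes, and 4.10 and 12.9 times over unmarked members. Fcgr4, the activating receptor for IgG known as CD16-2, was 6.10 and 2.62 times higher, and 10.5 and 5.73 times without marked cells. Stap1, a signalling adaptor, was 4.75 and 10.9 times higher, and 6.13 and 18.2 times without them. Cd300e, an activating receptor of the CD300 family, had no UMI in quiescent classical monocytes and 1.58 UMIs per 10000 in members. In a separate list of transcription factors of monocyte fate, 2 of 15 compared genes were at least 2-fold higher in each library, Tcf7l2 and Pou2f2 in the quiescent and Nr4a1 and Pou2f2 in the fibrosis library, where 5.84% and 10.8% of all genes were. Without marked cells 3 of 15 were in each, Tcf7l2, Pou2f2 and Nr4a1, where 5.56% and 9.19% were. Pou2f2, which encodes OCT2, was 2.40 and 2.30 times higher, and 3.45 and 4.16 times without marked cells. Tcf7l2, a factor of the Wnt pathway, was at 3.53 and 1.33 times, and at 3.61 and 2.21 times without them. Cebpa, a factor of myeloid progenitors and classical monocytes, was lower, at 0.483 and 0.280 times the classical level, and without marked cells at 0.520 and 0.284 times, the quiescent value then being less than 2-fold.

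**Figure D2:**
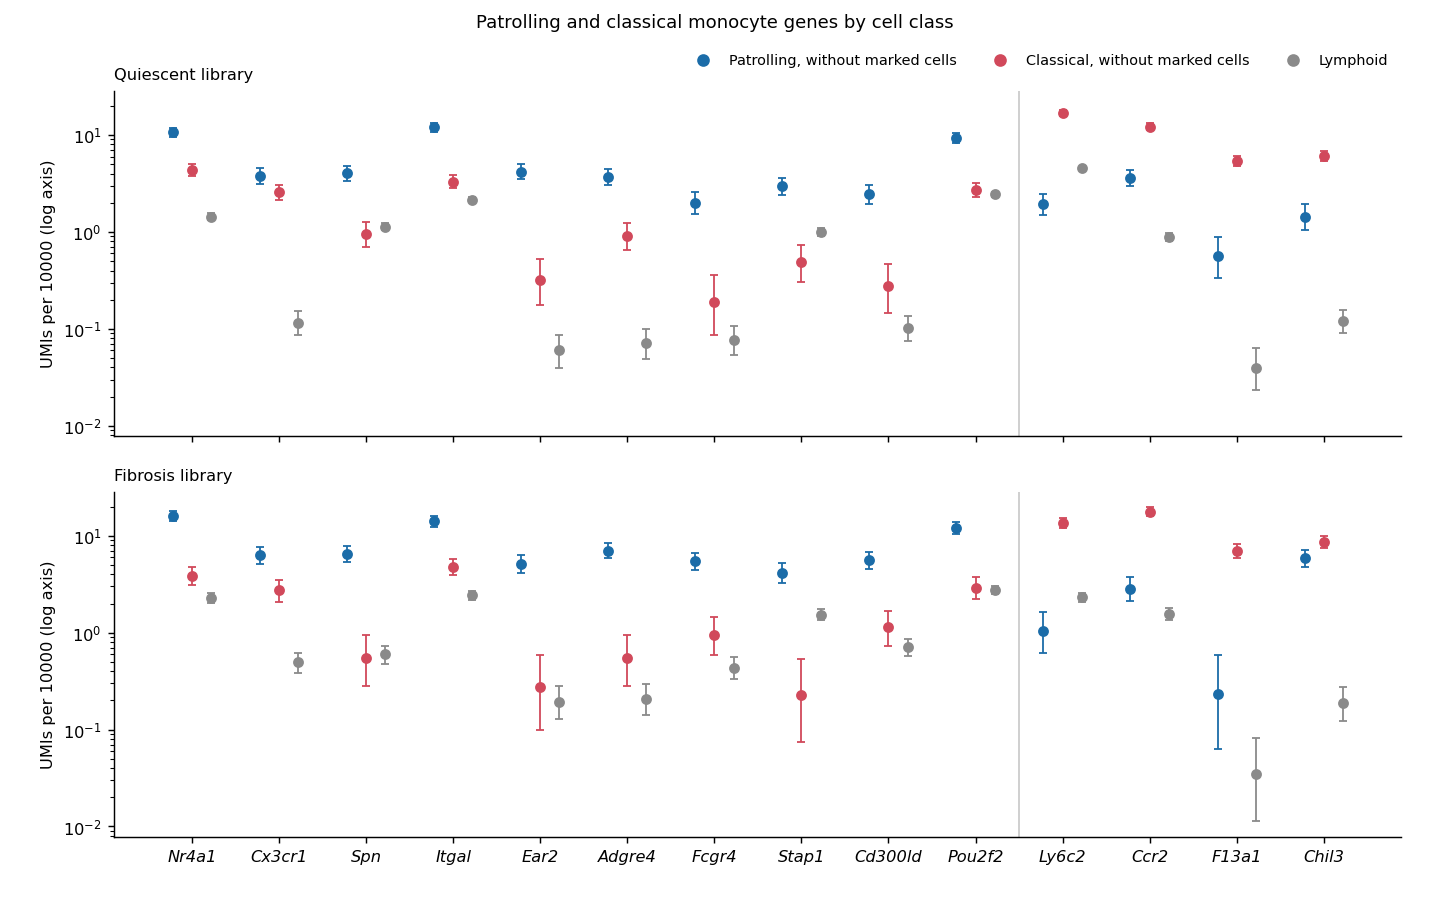
UMIs per 10000 (log axis) of 10 patrolling genes left and 4 classical genes right of the grey line, in unmarked patrolling members, unmarked classical monocytes and lymphoid cells of the quiescent library (top) and the fibrosis library (bottom). Points are summed levels and bars 95% Poisson intervals. Nr4a1, Spn, Ear2 and Adgre4 stood higher in patrolling than in classical cells in both libraries, and Ly6c2, Ccr2 and F13a1 stood lower.

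Genes of classical monocytes were lower in the members. In a list of classical identity 8 of 10 compared genes were at least 2-fold lower in the quiescent and 8 of 12 in the fibrosis library. Of all compared genes 3.72% and 6.44% were lower. None of the list was higher. Without marked cells 7 of 10 and 7 of 12 were lower, where 3.26% and 6.6% of all genes were. Ly6c2 and Ccr2 chose the classical cells, so their levels are a description, at 1.36 and 0.553 UMIs per 10000 of Ly6c2 in the members against 16.2 and 13.2. Of the quiescent members 7 met the Ly6c2 and Ccr2 limits of the classical class, and of the fibrosis members 1 did. F13a1, coagulation factor XIII, was at 0.0696 and 0.0179 times the classical level, and without marked cells at 0.104 and 0.0332 times. Chil3, a chitinase-like protein of monocytes, was at 0.164 and 0.348 times, and Lyz2, lysozyme, at 0.329 and 0.331 times. Without marked cells Chil3 was at 0.239 and 0.68 times and Lyz2 at 0.463 and 0.574 times, so both fibrosis values were then less than 2-fold. The chemokine Ccl5 had 0.329 UMIs per 10000 in quiescent members and none in fibrosis members, against 1.47 and 2.45 in classical monocytes. Ccl5 is also a gene of T and NK cells. In classical monocytes 26% and 43.5% of its UMIs came from 1 cell, and markers of T and NK cells summed to 2.65 and 3.99 UMIs per 10000 over 9 genes there, with highest cells at 59.0 and 115, against 0.431 and 0.332 in members. Their part in the Ccl5 difference was not tested.

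Over both libraries 1774 genes were compared in each, and 34 were higher in the members in both, 34 lower in both and 6 at least 2-fold in opposite directions. Without marked cells 60 of 1828 were higher in both, 25 lower and 2 opposite. Ranked by the smaller ratio of the 2 libraries, the genes higher in both began with Slc12a2, a sodium, potassium and chloride transporter (13.7 and 16.1), Dusp16, a phosphatase of stress kinases (11.8 and 23.8) and Ear2, and went on with Pglyrp1, a peptidoglycan-binding protein (7.57 and 5.31), Stap1, Cyth3, an exchange factor for ARF GTPases (8.47 and 4.39) and Hes1, a transcriptional repressor downstream of Notch (3.31 and 4.64). Without marked cells the ratios were 25.7 and 25 for Slc12a2, 20.8 and 42.2 for Dusp16, 10.2 and 11.2 for Pglyrp1, 10.1 and 5.48 for Cyth3, and 4.45 and 5.22 for Hes1. The proliferation genes Top2a and Mki67 belonged to this set over all members, with ratios of 12.7 and 8.29 for Top2a. They left it without marked cells. Mki67 had a UMI in 12 of 70 quiescent members but in 5 of the 57 unmarked ones, and in 5 of 47 and 1 of 39 in the fibrosis library.

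**Figure D3:**
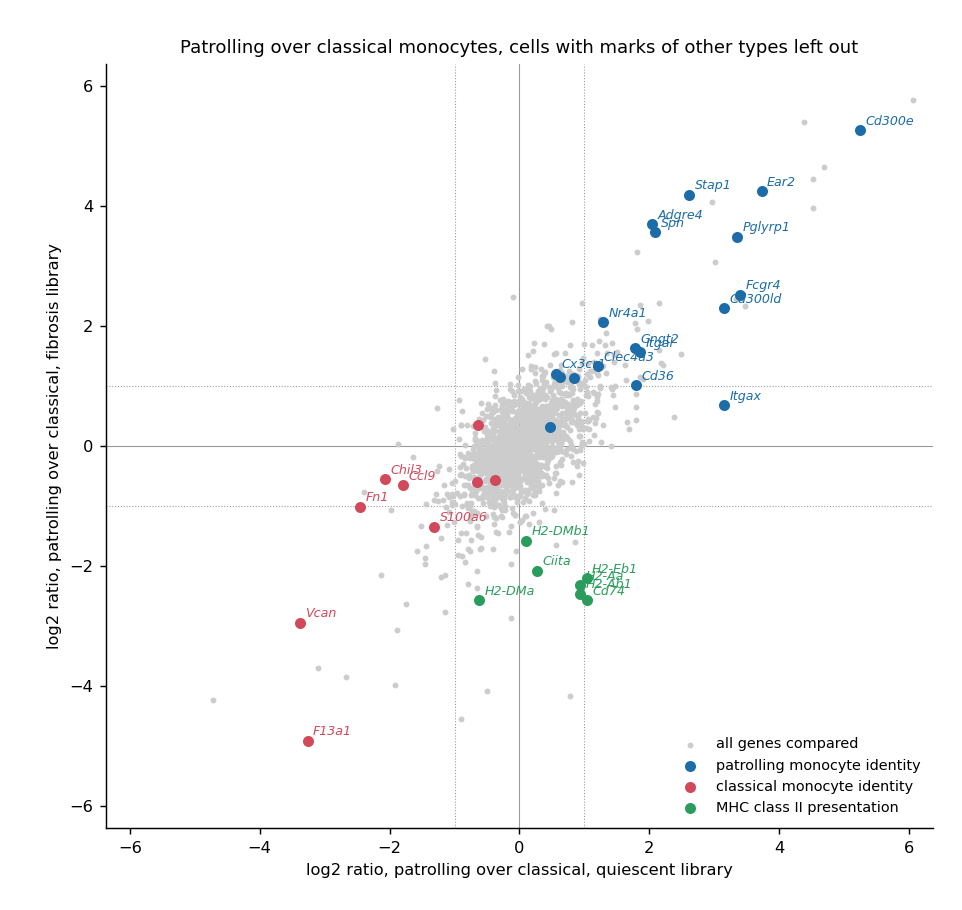
Log2 ratio of patrolling over classical monocytes in the quiescent library (horizontal axis) and the fibrosis library (vertical axis), marked cells left out. Each point is 1 gene and the dotted lines stand at 2-fold. A single classical gene is drawn among all genes compared. Patrolling identity genes lie at the upper right, classical identity genes at the lower left, and the MHC class II genes at the lower right, all over 2-fold lower in patrolling cells of the fibrosis library. Of these H2-DMa alone was below 0 in the quiescent library.

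Promoters of the identity genes were searched for the letters AAAGGTCA, the NBRE that Nr4a1 binds, on both strands of the window from 250 bases before to 50 after the gene start (RefSeq, GRCm38.p6). The letters stood in 1.70% of 27025 genes and in 0 of 19 genes of the identity list with an entry. The match is to letters only and says nothing of binding.

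Genes of antigen presentation by MHC class II differed between the libraries within the members in every gene compared. MHC class II molecules present peptides to CD4+ T cells. H2-Aa, H2-Ab1 and H2-Eb1 encode their chains, Cd74 the invariant chain, H2-DMa and H2-DMb1 the peptide-loading chains, and Ciita the factor that switches these genes on. Among all genes compared between fibrosis and quiescent members, 15.8% were at least 2-fold higher in the fibrosis library and 8.4% lower, and over unmarked members 12.6% were higher and 8.8% lower. All 8 compared genes of the class II list were at least 2-fold lower in the fibrosis members, with a median log2 ratio of -1.79, where the median over all genes was 0.12. Over unmarked members all 7 compared were lower, with a median of -2.51, where the median over all genes was 0.23. In classical monocytes 0 of 7 were 2-fold lower, with and without marked cells, where 7.76% of all compared genes were lower with and 8.24% without them.

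Cd74 ran from 0 to 264 UMIs per 10000 in single quiescent members with a median of 27.0, and from 0 to 193 in fibrosis members with a median of 2.63. The ranges overlapped, but the middle of the distribution stood far lower in the fibrosis library. The summed level was 90.9 UMIs per 10000 in quiescent and 20.4 in fibrosis members, a ratio of 0.225 (0.208 to 0.243). In unmarked members it was 59.6 and 5.81, a ratio of 0.0976 (0.0790 to 0.119), and 55.0% of the UMIs of the unmarked fibrosis members came from 1 cell. Classical monocytes held 33.4 and 41.4, a ratio of 1.24, and 1.2 without marked cells. Patrolling cells thus held more Cd74 than classical ones in the quiescent library, 2.72 times, and less in the fibrosis library, 0.494 times. Without marked cells these ratios were 2.06 and 0.168.

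H2-Aa had a median of 7.67 UMIs per 10000 in quiescent members, between 0 and 102, and a median of 0 in fibrosis members, with a highest value of 111. Its summed level was 39.1 and 10.7, a ratio of 0.274, and in unmarked members 21.4 and 3.43, a ratio of 0.16. H2-Eb1 stood at 0.261 times and H2-Ab1 at 0.263 times the quiescent level, and at 0.175 and 0.156 times over unmarked members. Ciita was seen in 22 of 70 quiescent and 6 of 47 fibrosis members, at 0.389 times the level (0.231 to 0.633), and in 13 of 57 and 2 of 39 unmarked members. Cd86, the co-stimulatory ligand of CD28, was at 0.439 times over all members but 0.874 times over unmarked members, where it no longer met the level needed for comparison. Of 8 compared genes of MHC class I presentation, the immunoproteasome genes Psmb8 and Psmb9 and the peptide transporter Tap1 were 2-fold lower over all members, where 8.4% of all genes were. Over unmarked members Psmb8 alone was lower, 1 of 8, where 8.8% of all genes were. In classical monocytes 2 of 8 were lower, Psmb8 and Psmb9 with marked cells and Psmb9 and Tap1 without them. Of all genes 7.76% and 8.24% were lower there. In lymphoid cells 0 of 8 were, where 7.41% of all genes were, so that count is near that of all genes. The lymphoid class is no measure of free RNA for these genes, since B cells use them.

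Most H2-Aa UMIs of the unmarked quiescent members lay in a group of them. At least 20 UMIs per 10000 of H2-Aa, a value chosen after the levels were seen, were found in 16 of 57 unmarked quiescent members (28.1%, 17.0 to 41.5) and in 1 of 39 unmarked fibrosis members (2.56%, 0.0649 to 13.5). The value cut through a range of levels. Of the 16 quiescent cells 6 lay just above it, at 21.9 to 27.8, and 2 further quiescent cells lay between 10 and 20. Of the fibrosis members 2 of 39 lay between 10 and 30. In unmarked classical monocytes the count was 10 of 69 and 9 of 33, and with marked cells 12 of 71 and 12 of 37. Within the unmarked quiescent members the 16 cells with high H2-Aa differed from the other 41 in further genes, given as a description since the cells were chosen on their own counts. Cd74 was at 130 against 15.7 UMIs per 10000, where all unmarked fibrosis members together held 5.81, so it was lower there than in either group. Ciita was at 2.70 against 0.101 UMIs per 10000. Of the classical genes, Ccr2 was at 6.55 against 1.82. Ly6c2 was at 1.31 (0.749 to 2.13) against 2.33 (1.71 to 3.11), in 3 of 16 and 7 of 41 cells, and these intervals overlapped. Patrolling genes were lower in the high group, with Itgal at 7.62 against 14.7, Nr4a1 at 7.94 against 12.4, Spn at 2.70 against 4.87 and Ear2 at 2.70 against 5.12. Cx3cr1 was at 3.28 against 4.11. Dendritic genes were low in both groups, with at most 5 UMIs of any of them in either group. The intervals of the 2 groups overlapped for each of these genes. Flt3 was at 0.409 against 0 UMIs per 10000, Zbtb46 at 0.409 against 0.152, Clec9a at 0.246 against 0.0507, and Clec10a and Cd209a both at 0.164 against 0.0507 and 0. Xcr1 was at 0 in both, but it and Clec9a were limited by leaving out marked cells. The B cell gene Ms4a1 was at 0 against 0.0507. The median depth was 6859 UMIs in the high group and 4737 in the other.

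**Figure D4:**
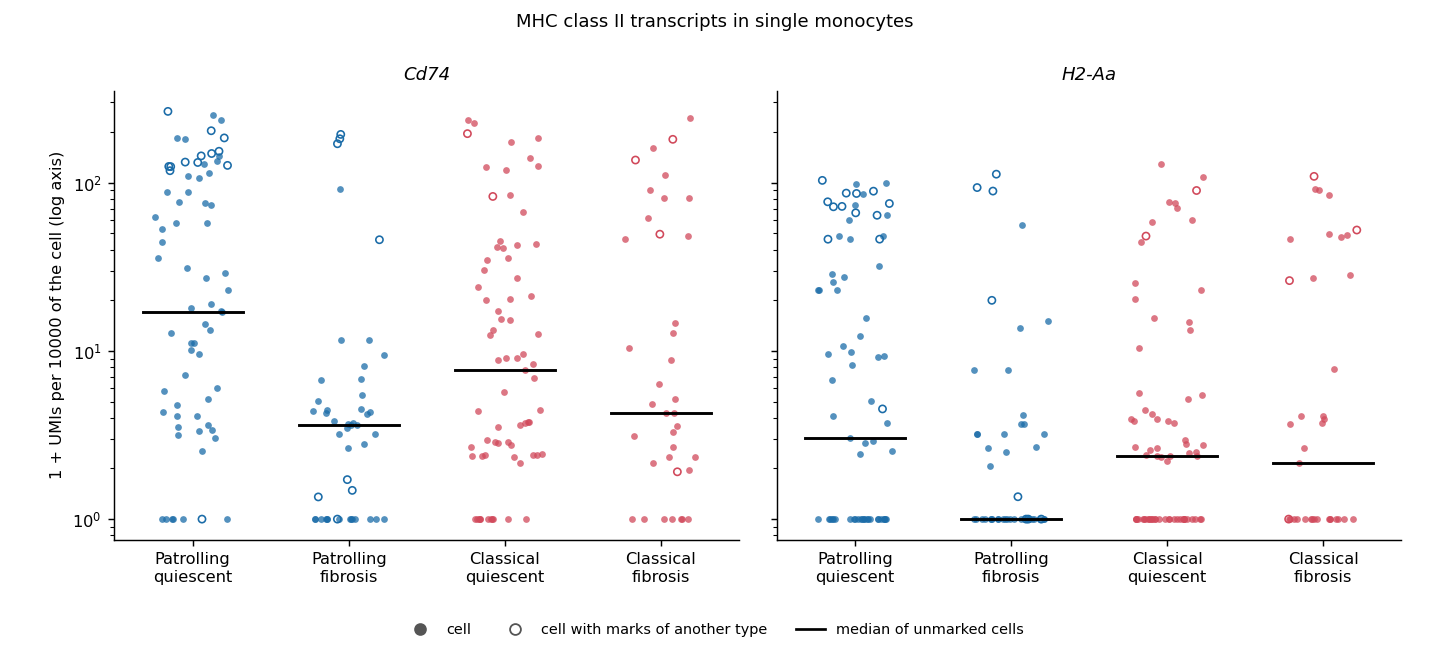
Cd74 and H2-Aa in single patrolling and classical monocytes of each library, as 1 plus UMIs per 10000 on a log axis. Each point is 1 cell, open circles are marked cells, and bars are medians of unmarked cells. For Cd74 in unmarked patrolling members the median level was 16.1 UMIs per 10000 in the quiescent and 2.63 in the fibrosis library.

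The promoters of H2-Aa and H2-Eb1 are shown because these class II genes moved together and both hold the Y box, the motif of the class II promoter bound by the factor NF-Y. The letters CTGATTGG were searched on both strands of the same window and stood in 4.70% of 27025 genes and in 2 of 4 list genes with an entry. H2-Aa lies at chr17:34282744-34287823 on the minus strand and H2-Eb1 at chr17:34305867-34316674 on the plus strand (GRCm38). The 130 bases before each gene start follow, 5′ to 3′ on the strand of the gene, at chr17:34287824-34287953 and chr17:34305737-34305866, with the Y box in capitals. It begins 51 bases before the start of H2-Aa and 62 before that of H2-Eb1.
H2-Aa: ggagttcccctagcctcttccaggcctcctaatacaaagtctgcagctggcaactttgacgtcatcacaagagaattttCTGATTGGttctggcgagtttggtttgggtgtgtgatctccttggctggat
H2-Eb1: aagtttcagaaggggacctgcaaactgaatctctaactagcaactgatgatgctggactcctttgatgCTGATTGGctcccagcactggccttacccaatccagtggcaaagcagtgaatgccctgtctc

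Of 10 compared genes of the interferon response 6 were at least 2-fold lower in the unmarked fibrosis members, namely Ifit1, Rsad2, Ifi209, Ifitm3, Ifi27l2a and Irf7, where 8.8% of all genes were. Over all members 2 of 9 were, Ifi209 and Stat2, where 8.4% of all genes were. In unmarked classical monocytes 4 of 14 were, and 5 of 14 with marked cells, where 8.24% and 7.76% of all genes were. In lymphoid cells 0 of 5 were, where 7.41% of all compared genes were lower. Within the libraries, 2 of 14 genes of the list in the quiescent and 5 of 10 in the fibrosis library were lower in unmarked patrolling than in classical monocytes, against 3.26% and 6.6% of all genes. Over all members the counts were 4 of 14 and 5 of 9. Ifitm3, which restricts virus entry, ranged from 8.30 to 60.0 UMIs per 10000 in unmarked quiescent members with a median of 27.3, and from 0 to 26 in unmarked fibrosis members with a median of 9.57. Every unmarked fibrosis cell thus lay below the median of the unmarked quiescent cells. The ratio was 0.341 in unmarked members and 0.397 in unmarked classical monocytes, while lymphoid cells gave 0.93. Over all members it was 0.583, and 0.428 over all classical monocytes. Irf7, the factor that amplifies the interferon response, stood at 0.387 times in unmarked members and 0.608 times over all members. Ifi27l2a was at 0.376 times in unmarked members but 1.27 times over all members, where 1 fibrosis cell held 45.3% of its UMIs.

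The identity genes of patrolling cells were next compared between the libraries. Over all members Cd36, a receptor for oxidised lipids, was the only one of 18 compared to be 2-fold higher in fibrosis, at 2.62 times, and Itgax, the integrin CD11c, the only one lower, at 0.381 times. These shares of the list were below the 15.8% of all genes that were higher and the 8.4% that were lower. Cd36 was also 5.22 times higher in classical monocytes and 6.31 times in lymphoid cells. Over unmarked members Itgax was at 0.619 times. There Cd36, Fcgr4, Dusp5 and Cd300ld were 2-fold higher of 19, where 12.6% of all compared genes were, and the median log2 ratio of the list was 0.47 against 0.23 over all genes. Nr4a1 was at 1.21 times over all and 1.51 times over unmarked members, and Adgre4 at 1.49 and 1.89 times. Fcgr4 stood at 1.96 times over all members, 2.73 times over unmarked members, 4.57 times in classical monocytes and 5.02 times in unmarked ones. It was 5.64 times higher in lymphoid cells, at 0.437 UMIs per 10000 in the fibrosis library, so cells of another lineage moved in the same direction. The part of free RNA in the members' value was not tested.

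Genes of classical cells went both ways between the libraries. Of 8 compared genes of the classical list that the classes' rules did not use, Fn1, Thbs1, Chil3 and Ccl9 were at least 2-fold higher in the fibrosis members and S100a4 and Plac8 lower, where 15.8% of all genes were higher and 8.4% lower. Over unmarked members Fn1, Chil3 and Ccl9 were higher and S100a4 and Plac8 lower of 7, where 12.6% and 8.8% of all genes were, and the median log2 ratio of the list was -0.17. Chil3 was seen in 13 of 70 quiescent and 18 of 47 fibrosis members, and its level was 0.945 and 2.79 UMIs per 10000, a ratio of 2.95 (2.06 to 4.28), and 4.08 over unmarked members. In classical monocytes the ratio was 1.39, in unmarked ones 1.43 and in lymphoid cells 1.57. Ccl9, a chemokine, was at 2.20 times over all and 2.69 times over unmarked members, and Plac8, a protein of myeloid cells, at 0.406 and 0.46 times. Thbs1, thrombospondin 1, was at 4.61 times, but 4 members of each library had a UMI, 1 cell held 85.4% of the fibrosis UMIs, and over unmarked members it was not compared. Fn1, fibronectin, was 16.8 times higher over all and 6.94 times over unmarked members, but 1 cell held 55.6% and 58.6% of the fibrosis UMIs. S100a4, a calcium-binding protein of motile cells, was at 0.215 times over all and 0.278 times over unmarked members, and it was lower in classical monocytes (0.269) and lymphoid cells (0.472) too. Lyz2 was at 0.472 times in members and 0.469 times in classical monocytes, and without marked cells at 0.611 and 0.493 times.

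In a list of genes of scar-associated macrophages 7 of 11 compared genes were at least 2-fold higher in fibrosis over all members, where 15.8% of all genes were. Over unmarked members 5 of 10 were, namely Ctsd, Spp1, Lgmn, Ctsl and Ctsb, where 12.6% of all genes were. The ratio of Spp1 was 2.90 over all members and turned to 0.261 with an identity limit of 2 UMIs. In unmarked classical monocytes 5 of 10 were, and 5 of 9 with marked cells, where 9.8% and 10% of all compared genes were higher. In lymphoid cells 9 of 12 were, where 11.7% of all compared genes were. Ctsb encodes the lysosomal protease cathepsin B. It ranged from 0 to 47.2 UMIs per 10000 in quiescent members with a median of 12.8, and from 5.19 to 70.9 in fibrosis members with a median of 34.6. The summed levels were 11.8 and 24.7, a ratio of 2.09 (1.88 to 2.33). Lymphoid cells held 3.16 and 23.1, a ratio of 7.33, so in the fibrosis library cells of another lineage were at nearly the level of the members. Unmarked fibrosis members held 37.1. In clearance and lipid genes 5 of 10 were higher over all members, namely Lpl, Abca1, Axl, Mrc1 and Cd36, and 4 of 9 over unmarked members, where Axl was not among them. In classical monocytes 7 of 12 were higher, 6 of 11 without marked cells, and in lymphoid cells 6 of 8. Abca1, a cholesterol exporter, was 6.08 times higher in unmarked members, 4.12 times in unmarked classical monocytes and 2.29 times in lymphoid cells. With marked cells the values were 4.32 in members and 5.22 in classical monocytes. Lpl, lipoprotein lipase, was 16.7 times higher over all members, 9.90 times in unmarked members, 4.25 times in unmarked classical monocytes and 17.6 times in lymphoid cells. Kupffer cell markers, summed over 9 genes, moved with these, from 3.22 to 14.2 UMIs per 10000 in unmarked members and from 3.32 to 12.3 in lymphoid cells. Their part in the lysosome and lipid genes was not tested.

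**Figure D5:**
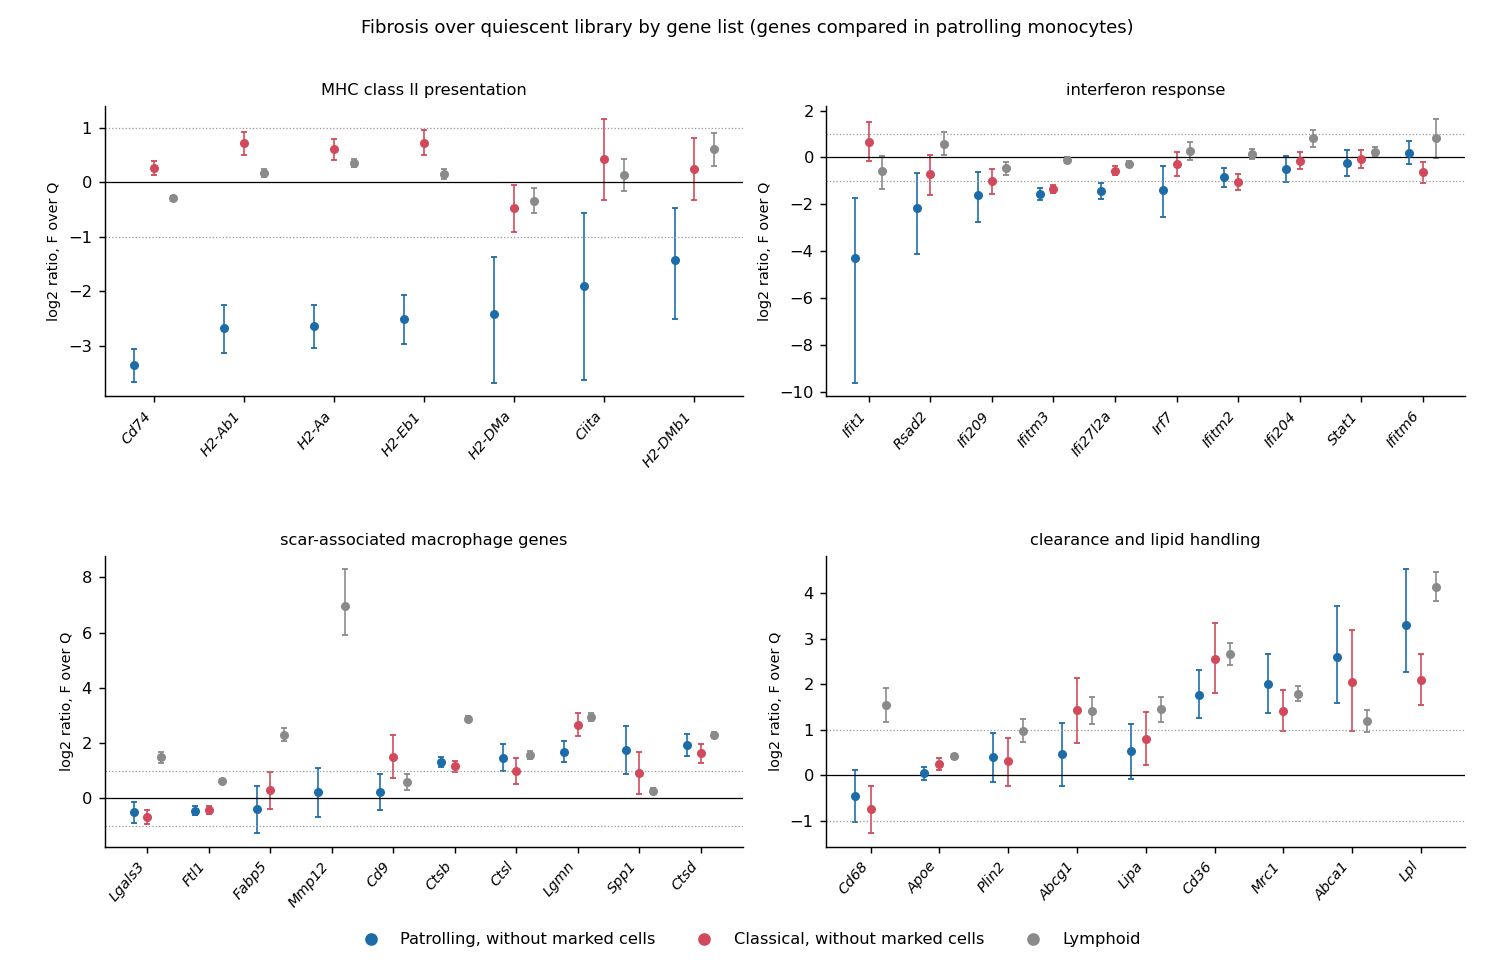
Log2 ratio of fibrosis over quiescent with 95% intervals for genes of 4 lists in unmarked patrolling members, unmarked classical monocytes and lymphoid cells. Ratios with a count of 0 are not drawn. The 7 MHC class II genes compared lie below 0 in patrolling members, with Cd74 at -3.36 against 0.26 in unmarked classical monocytes.

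The largest ratios between the libraries over all members belonged to genes of other cell types. The 12 highest were genes of matrix-producing cells led by Col1a1. It had 0.0205 UMIs per 10000 in quiescent and 52.7 in fibrosis members, most of them in the 4 mesenchymal cells. Without marked cells Col1a1 stood at 0 in quiescent and 1.57 UMIs per 10000 in fibrosis members, and Dcn was 11.7 times higher. In lymphoid cells Col1a1 was 76.6 times and Dcn 5.59 times higher, so both also rose in cells of another lineage. The part of free RNA in the members' values was not tested. Hepatocyte genes such as Car3, Gnmt and Apoa5 were among the lowest ratios over all members. Hepatocyte markers summed to 128 UMIs per 10000 in quiescent and 13.3 in fibrosis members, and to 159 and 18.2 in lymphoid cells, so they moved alike in cells of another lineage. Clec9a (0.118 times), Batf3 and Irf8 (0.406 times) were lower over all members. They are dendritic genes carried by the 9 marked quiescent cells, and without marked cells the ratios of Clec9a and Irf8 were above 1. The heat-shock gene Hspa1a was at 0.0457 times in members, 0.122 times in classical monocytes and 0.212 times in lymphoid cells, and without marked cells at 0.0371 times in members and 0.0902 times in classical monocytes.

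Among the remaining genes that stood out in the unmarked members, Fpr2, a formyl peptide receptor of phagocytes, was seen in 4 of 57 quiescent and 20 of 39 fibrosis cells. Its level was 0.25 and 2.03 UMIs per 10000, a ratio of 8.12 (3.70 to 20.3), beside 2.46 in unmarked classical monocytes and 4.03 in lymphoid cells. Over all members the ratio was 3.46, and 2.38 over all classical monocytes. Arrdc3, an arrestin-domain protein, was 13.8 times higher in unmarked members, beside 4.76 in unmarked classical monocytes and 2.87 in lymphoid cells. With marked cells it was 6.90 times higher in members and 5.15 times in classical monocytes. Dusp1, a phosphatase induced early by stress, was 2.23 times higher in unmarked members and 2.87 times in lymphoid cells. It was at 1.61 times over all members and at 1.95 and 1.99 times in all and in unmarked classical monocytes, all less than 2-fold. Of 13 immediate early genes compared, 0 were 2-fold apart between patrolling and classical monocytes in either library, with and without marked cells, where 5.84% of all genes were higher and 3.72% lower in the quiescent and 10.8% and 6.44% in the fibrosis library, so the count is near that of all genes. Of 8 cytokines and chemokines compared with classical monocytes in each library, Il1b in the quiescent library was the only one 2-fold higher over all members. In the quiescent library 3 of 8 were 2-fold lower, Ccl5, Ccl3 and Cxcl10, where 3.72% of all genes were. In the fibrosis library 2 of 8 were lower, Ccl5 and Ccl3, where 6.44% of all genes were. Without marked cells 2 of 7, Ccl5 and Ccl3, and 2 of 8, Ccl5 and Ccl4, were lower, where 3.26% and 6.6% of all genes were. Il1b, interleukin 1 beta, stood at 2.94 and 2.51 UMIs per 10000 in the members and was 2.27 and 1.77 times the classical level, and 2.32 and 2.26 times without marked cells, with the quiescent ratio at 0.847 when cells over 5% mitochondrial UMIs were left out. Survival genes were few in the comparison. Bcl2a1b, an inhibitor of apoptosis, was at 0.227 times in fibrosis members and 0.169 times in fibrosis classical monocytes, or 0.272 and 0.148 times without marked cells. It was the only survival gene 2-fold lower, 1 of 5 compared over all members and 1 of 6 over unmarked members, where 8.4% and 8.8% of all genes were lower. In classical monocytes it was 1 of 5, where 7.76% of all genes were lower, and Birc3, another inhibitor of apoptosis, was 2.31 times higher there, against 1.27 times in members.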

How the data were processed

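The deposited UMI counts per gene and cell were made by the authors with Cell Ranger 3.0.1 on mm10, per the labels and methods, from 10x 3′ libraries, and were not normalized. The methods state that doublets were removed with Scrublet, and none were removed here. Counts were summed per class and library and given per 10000 UMIs with exact Poisson intervals, and ratios with exact binomial intervals, at 95%. The replicate is the mouse, of which there was 1 per condition, so there was no test and no replicate error. The limit for 2-fold counts was a level of 1 per 10000 and 10 UMIs. Genes named beyond the lists were the 12 highest and 12 lowest fibrosis to quiescent ratios that differed from the lymphoid log2 ratio by at least 1, and the 15 highest and 15 lowest patrolling to classical ratios shared by both libraries. Cells with a mark had at least 3 UMIs of Xcr1 and Clec9a, or per 10000 UMIs at least 20 of Col1a1, Col3a1 and Dcn, 20 of S100a8 and S100a9, 40 of C1qa, C1qb and C1qc, or 100 of Hba-a1 and Hbb-bs. A single gene of the classical list is not reported here by itself. Members and gene lists were chosen with earlier results of these data known. Scripts ran in Python 3.11.15 with numpy 2.4.6, scipy 1.17.1 and scanpy 1.11.5. The counting and intervals were tested on simulated data. Alternatives changed the identity, mitochondrial and depth limits, the minimum level, the classical limits and the marked cells.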

Additional observations from a re-analysis of the deposited data

Results flagged for a closer look

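Over all members the patrolling to classical ratio was at least 2-fold in opposite directions in the 2 libraries for 6 genes. Of these 4 were haemoglobin genes, which the rule on named genes leaves out, and the other 2 were Cd74 and Txndc5. Without marked cells the 2 such genes were Cd74 and H2-Eb1. The difference was not tested, since each library is 1 mouse. Cd74 stood at 2.72 times the classical level in the quiescent and 0.494 times in the fibrosis library, and at 2.06 and 0.168 times without marked cells. Txndc5, a protein disulphide isomerase of the endoplasmic reticulum, stood at 0.427 and 2.32 times, and at 0.442 and 1.12 times without marked cells, and 47.6% of its UMIs in fibrosis members came from 1 cell.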

How the results depend on the processing

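No paired analysis was possible because each condition is 1 library with no replicate, and leaving out a replicate was not possible for the same reason. Of 1502 values of single genes over the alternatives other than the minimum level, which leaves a gene's own value as it is, 1027 kept their direction within counting error, 452 moved further and 23 changed direction. Genes under 1 UMI per 10000 in both groups were not compared, and with 1 mouse per condition mouse, library and condition cannot be told apart. The cause of the changes below was not tested unless stated.

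The share of members was 1.33% of quiescent and 1.06% of fibrosis cells with a limit of 2 identity UMIs, 0.629% and 0.359% with a limit of 5 UMIs, and 1.73% and 1.41% of the cells left when the mitochondrial limit was 5%. At that mitochondrial limit, which leaves fewer cells, 203 genes were higher and 209 lower in patrolling than in classical monocytes of the quiescent library, and 443 and 379 in the fibrosis library. With a minimum of 0.5 UMIs per 10000 more genes are compared by construction, and 791 were higher and 403 lower in fibrosis than in quiescent members, with 250 higher and 187 lower than classical in the quiescent and 573 and 404 in the fibrosis library. With a minimum of 10 UMIs alone the counts were 1664 and 935, 796 and 554, and 1207 and 731. Classical monocytes with at least 4 UMIs of Ly6c2 and no identity UMI gave 274 genes lower in fibrosis members. The share of members with a Cx3cr1 UMI was 46.4% and 61.7% when cells were thinned to 2000 UMIs, a greater depth and a separate random draw, and that of Nr4a1 62.3% and 74.5%, and that of Ly6c2 in fibrosis members 2.13%, against 8.51% at 1000 UMIs.

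Ratios changed direction as follows. The fibrosis to quiescent ratio of Spp1 was 0.261 with a limit of 2 UMIs. With a limit of 5 UMIs per 10000 that of Cd86 was 1.03, of Cxcl2 0.986 and of Irf8 1.13, and the patrolling to classical ratios were 0.286 and 0.115 for Mki67, 0.779 and 0.984 for Top2a, and 0.559 in the quiescent library for Wdfy4. In cells of 2000 to 10000 UMIs the fibrosis to quiescent ratio was 1.06 for Cd86 and 1.59 for Irf8, and the patrolling to classical ratio was 0.989 for Wdfy4 in the quiescent and 0.0934 for Mki67, 0.880 for Top2a and 0.967 for Txndc5 in the fibrosis library. With a limit of 5 UMIs the last was 0.429. Il1b stood at 0.847 in the quiescent library at the 5% mitochondrial limit, and Mki67 at 0.702 in the fibrosis library as a mean over cells. Without marked cells, an alternative chosen after seeing the data, the fibrosis to quiescent ratio was 1.39 for Clec9a and 1.16 for Irf8, and the patrolling to classical ratio 0.451 and 0.107 for Mki67 and 0.674 in the quiescent library for Top2a.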
